A study of Mus musculus with 6 samples.

Results

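Atf4 and genes tied to it in the response to amino acid shortage were read in thymocytes given a strong or a weak receptor signal. The 10 genes, chosen by symbol, were Atf4, Atf5, Ddit3, Xbp1 and Atf6, which encode transcription factors, and Asns, Chac1, Trib3, Sesn2 and Ddit4, which encode effectors, of 16593 named genes on the array. For 9 of them the platform annotation named a probe, 13 probes in all, and Atf6 was not analysed here. Of these probes, 11 were tested, because 2 or more of the 6 arrays gave them a detection p-value under 0.05.

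The cells were thymocytes before selection, which carry both CD4 and CD8, from AND.Rag1-/-H-2d mice. AND is a transgenic T cell receptor that recognises a moth cytochrome c peptide held by I-Ek, a class II molecule, the Rag1 deletion keeps the cells from making other receptors, and the H-2d background does not select this receptor. All 3 groups shared this genotype. For 7 h they met I-Ek Ig dimers fixed to a plate and loaded with MCC (labelled as negative selection), gp250 (positive selection) or Hb (non-selecting), with 2 one-colour arrays each. Per the labels, the culture medium of every group held added nonessential amino acids and 2-mercaptoethanol. Neither the age of the mice nor whether the 2 arrays of a ligand came from separate mice or cultures is stated, so the p-values rest on the spread among these samples alone, and that spread may be technical.

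Of 25697 probes, 10519 to 11603 were detected per array, and the mean signal as deposited lay at 582 to 613 on MCC arrays, 445 to 482 on gp250 arrays and 470.2 to 488 on Hb arrays. In limma, 54.8% of the 11942 tested probes passed an adjusted p of 0.05 between MCC and Hb, with 3176 higher and 3369 lower. When arrays were left unscaled, MCC exceeded Hb by 0.22 (log2) at the median tested probe, and the calls split into 4674 higher and 2017 lower. Of 8 markers of CD4 CD8 double-positive thymocytes with a probe, 7 were detected, and the Cd8a probe was not detected on any array although Cd8b1 was detected on all. Of the 7, 6 were lower with MCC than with Hb, and Cd4 and Rag2 were not detected on the MCC arrays. Their summed signal ranged between 27328 and 27335 on MCC arrays, 72434 and 72859 on gp250 arrays, and 72825 and 76021 on Hb arrays. Markers of B cells summed between 282 and 295 on MCC arrays, 1039 and 1180 on gp250 arrays, and 1115 and 1119 on Hb arrays, and 3 of 5 were detected, not Pax5 or Blnk. Myeloid and dendritic markers summed between 4486 and 4626 on MCC arrays, 3246 and 3253 on gp250 arrays, and 3283 and 3328 on Hb arrays, and 5 of 8 were detected, not Itgam, Itgax or Tyrobp. Erythroid markers summed between 2754 and 2808 on MCC arrays, 3118 and 3728 on gp250 arrays, and 2996 and 3478 on Hb arrays, and 2 of 4 were detected, not Alas2 or Slc4a1. Stromal and endothelial markers summed to 528 on both MCC arrays, between 1079 and 1334 on gp250 arrays, and 1176 and 1258 on Hb arrays, and 2 of 8 were detected, not Krt5, Foxn1, Col1a1, Col1a2, Pdgfra or Cdh5. NK and innate lymphoid markers summed between 166 and 214 on MCC arrays, 178 and 200 on gp250 arrays, and 230.0 and 238 on Hb arrays, and 2 of 7 were detected, not Ncr1, Klrb1c, Klrk1, Gzmb or Tbx21. These sums are of deposited signal, without scaling between arrays. A single gene carried most of the sum for B cells (Cd79b), myeloid (Cst3), erythroid (Hba-a1) and stromal markers (Pecam1). After normalization Cst3 did not pass between MCC and Hb (log2 0.15 ± 0.09, adjusted p = 0.223 in limma). Of 4 tested myeloid and dendritic markers, 1 was higher and 0 lower. The higher one was H2-Ab1, at 1.46-fold over Hb (log2 0.55 ± 0.13, adjusted p = 0.0117 in limma). The part of other cells in the results below was not tested, and in such bulk samples fewer cells of a type and less RNA per cell cannot be told apart.

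When an amino acid runs short or misfolded protein builds up in the endoplasmic reticulum (ER), kinases phosphorylate the translation factor eIF2, most translation slows and the ATF4 protein is made from mRNA already present. ATF4 then switches on genes for amino acid synthesis, uptake and tRNA charging, and CHOP, the product of Ddit3. XBP1 and ATF6 head the other arms of the ER stress response, which raise chaperones. Much of this control acts on translation, cleavage or splicing, which an array of mRNA does not read.

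Most of these genes were higher with MCC. By limma, 8 of the 11 tested probes were higher with MCC than with Hb (26.6% of all tested probes were higher), 1 was lower (28.2% of all) and 2 did not pass. Counted by the brightest probe of each gene, Asns, Chac1, Atf5, Atf4, Ddit3 and Xbp1 were higher, Ddit4 was lower, and Trib3 and Sesn2 did not pass. Over all genes by brightest tested probe, 55.1% passed, 26.3% higher and 28.8% lower. The median log2 fold change of the 9 brightest probes was 0.87, against -0.04 over the brightest probes of all 8253 genes tested. Trib3 and Sesn2 sat near background on every array. Chac1 and the dimmer tested probe of Asns passed the detection filter through the MCC arrays alone, so they had to be higher there, and the counts and the median carry that choice. The genes were also chosen with earlier results of these data known.

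**Figure D1:**
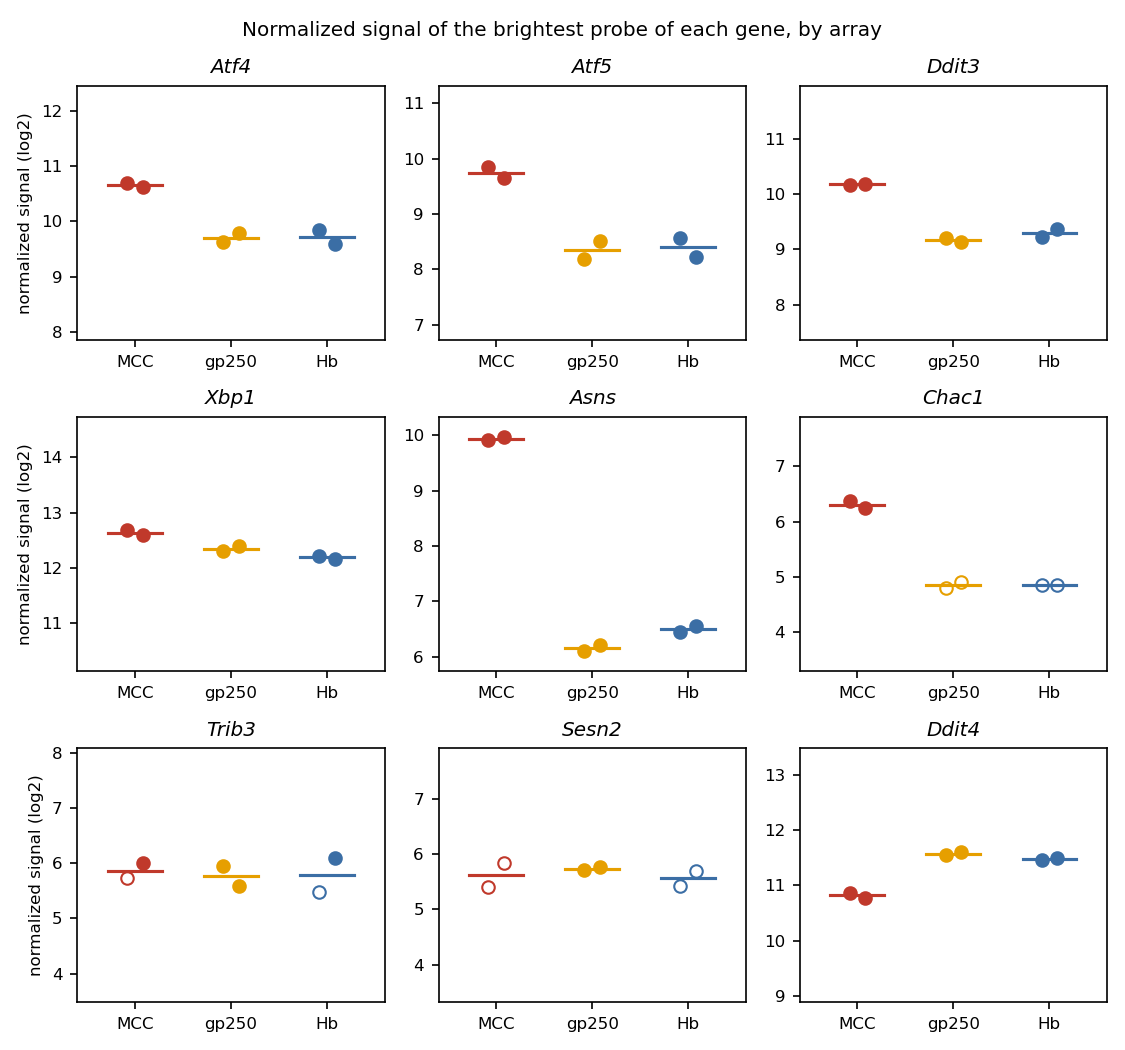
Normalized signal (log2, vertical axis) of the brightest probe of 9 genes on each array, by ligand on the horizontal axis. Points are arrays, filled where the detection p-value was under 0.05, and bars are means of 2 arrays. The 2 MCC arrays lie above the other 4 for Atf4, Atf5, Ddit3, Xbp1, Asns and Chac1 and below them for Ddit4. The gp250 and Hb arrays also lie apart for some of the 9 genes, of which 0 passed between these ligands.

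Among the transcription factors, Atf4 itself had a deposited signal of 1964 and 1798 on the MCC arrays, 673 and 823 on the gp250 arrays and 862 and 698 on the Hb arrays. Both MCC arrays were above all 4 others, and gp250 and Hb overlapped. After normalization Atf4 was 1.93-fold higher with MCC than with Hb (log2 0.95 ± 0.12, SE, n = 2 arrays per ligand, adjusted p = 0.000879). The 95% interval of this log2 change ran from 0.65 to 1.24.

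Atf5, a relative of Atf4 whose translation is also held back until eIF2 is phosphorylated, rose too. Its deposited signal was 1077 and 897 with MCC, 243 and 334 with gp250 and 353 and 265 with Hb. Again the MCC arrays stood apart and the other ligands overlapped. The rise over Hb was 2.55-fold (log2 1.35 ± 0.17, interval 0.95 to 1.75, adjusted p = 0.000752). The interval overlaps that of Atf4, and the difference between the genes was not tested.

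Ddit3 encodes CHOP, which ATF4 induces and which can promote cell death under lasting stress. Its brighter probe read 1356 and 1312 with MCC, 499 and 515 with gp250 and 559.6 and 601 with Hb. The dimmer Ddit3 probe read 720.0 and 751 with MCC, 316 and 296 with gp250 and 349 and 384 with Hb. Both probes were high on the MCC arrays alone, at 1.83-fold (log2 0.87 ± 0.10, adjusted p = 0.000452) and 1.63-fold (log2 0.71 ± 0.12, adjusted p = 0.00292) over Hb. On both probes the gp250 arrays lay below the Hb arrays, by -0.14 ± 0.10 and -0.20 ± 0.12 on the log2 scale, which did not pass (adjusted p = 0.887 and 0.865).

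Xbp1 encodes the factor that is made active when the ER sensor IRE1 splices its mRNA, and its single probe gives 1 signal in which splice forms were not separated. Its deposited signals were 8318 and 7258 with MCC, 4275 and 4909 with gp250 and 4419 and 4088 with Hb. The MCC arrays were above the rest, and the fitted rise over Hb was 1.36-fold (log2 0.44 ± 0.09, adjusted p = 0.00743). The size depended on scaling: the log2 change was 0.87 without scaling between arrays. Against gp250 the change was 1.22-fold (log2 0.29 ± 0.09, adjusted p = 0.0367). That call was lost whichever array was left out, with log2 values of 0.24 and 0.34 without MCC replicate 1 or 2, 0.25 and 0.34 without gp250 replicate 1 or 2, and 0.29 and 0.29 without Hb replicate 1 or 2.

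Promoters of 9 of the 10 genes were found by symbol in the RefSeq table (GRCm38.p6), as 10 windows of 250 bases before to 50 bases after a start, 2 of them for Atf5. They were searched on both strands for the core of the C/EBP-ATF response element, TGATGNAA, to which ATF4 is known to bind with C/EBP partners. It was in 3 of the 10 windows, those of Asns, Chac1 and Trib3, and in 3.97% of all 32851 windows in the table. The windows of Atf4, Atf5, Ddit3, Xbp1, Sesn2 and Ddit4 did not hold it. The cAMP response element core TGACGT (7.51% of all windows), the unfolded protein response element TGACGTGG, which contains it (0.676%), and the ER stress response element, CCAAT and CCACG with 9 bases between them (0.119%), were in 0 of the 10. A match says only that these letters are there, and their absence that they are not in this window.

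The windows of Trib3 and Sesn2 were added to the search after their values were seen. The 3 matching windows are shown because they hold the same element in effector genes whose signals differed: Asns rose steeply with MCC, Chac1 was detected with MCC alone, and Trib3 stayed near background. Each is written 5′ to 3′ along the gene with the element in capitals, at chr6:7693160-7693459 on the minus strand for Asns, chr2:119350992-119351291 on the plus strand for Chac1 and chr2:152344011-152344310 on the minus strand for Trib3. Counted from the start, the element spans bases -23 to -16 in Asns, -193 to -186 in Chac1 and 15 to 22 in Trib3. In Chac1 and Trib3 it lies on the opposite strand, so its reverse complement is printed.
Asns: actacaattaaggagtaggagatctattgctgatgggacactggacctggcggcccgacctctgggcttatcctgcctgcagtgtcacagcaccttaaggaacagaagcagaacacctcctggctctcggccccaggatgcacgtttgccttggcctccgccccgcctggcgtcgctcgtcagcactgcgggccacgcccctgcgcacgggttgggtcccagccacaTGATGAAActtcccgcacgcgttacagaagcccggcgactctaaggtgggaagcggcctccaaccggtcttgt
Chac1: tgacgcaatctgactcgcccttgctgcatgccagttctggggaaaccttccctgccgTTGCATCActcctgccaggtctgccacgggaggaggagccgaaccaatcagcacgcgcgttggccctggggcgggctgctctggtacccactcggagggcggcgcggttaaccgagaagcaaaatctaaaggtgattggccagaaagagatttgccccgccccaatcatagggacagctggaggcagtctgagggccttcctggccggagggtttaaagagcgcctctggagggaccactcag
Trib3: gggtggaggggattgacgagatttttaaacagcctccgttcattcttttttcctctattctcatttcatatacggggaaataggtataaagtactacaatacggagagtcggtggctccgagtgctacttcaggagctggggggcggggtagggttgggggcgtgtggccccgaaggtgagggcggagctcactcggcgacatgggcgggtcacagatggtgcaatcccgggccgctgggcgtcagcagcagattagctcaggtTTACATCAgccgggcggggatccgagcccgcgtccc

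Of the effectors, Asns, which encodes asparagine synthetase, had the largest fitted change of the 9 genes. Its brightest probe had deposited signals of 1125 and 1126 on the MCC arrays, 47.4 and 56.3 on the gp250 arrays and 69.8 and 74.5 on the Hb arrays. MCC and Hb thus lay far apart with little spread, and the fitted rise was 10.8-fold (log2 3.43 ± 0.10, interval 3.20 to 3.67, adjusted p = 2.87e-06). This was rank 59 among the rises of all 11942 tested probes. The fitted size depended on the processing. The log2 change of this probe was 3.02 with an offset of 50 and 3.70 without scaling between arrays, both outside that interval.

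The other Asns probes were dimmer. The middle one read 244 and 241 with MCC, 2.78 and 1.87 with gp250 and -5.74 and 1.39 with Hb, and was detected on neither the gp250 nor the Hb arrays. It was at least 4.34-fold higher with MCC than with Hb and at least 4.58-fold higher than with gp250. Such a bound compares mean normalized values after raising each undetected value to at least the lowest value detected on the same array. The dimmest Asns probe was not detected on any array and was not tested. It read 10.6 and 6.73 with MCC, -12.4 and -10.1 with gp250 and -13.3 and -12.1 with Hb.

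Chac1, a known ATF4 target whose enzyme breaks down glutathione, was detected with MCC alone. Its deposited signal was 76.4 and 67.2 with MCC, -7.52 and -0.33 with gp250 and -5.10 and -4.73 with Hb. The MCC signal was at least 1.52-fold higher than with Hb and at least 1.60-fold higher than with gp250, given as a description, since Chac1 was tested only because the MCC arrays detected it. Near background the fitted change hangs on the offset: MCC minus Hb was 1.45 on the log2 scale, 0.85 with an offset of 50 and 2.93 without background correction.

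Trib3, which encodes a pseudokinase that restrains ATF4 and CHOP, lay at the edge of detection. It read 40.6 and 54.4 with MCC, 41.7 and 29.1 with gp250 and 24.9 and 49.6 with Hb, and was detected on 1 MCC array, 2 gp250 arrays and 1 Hb array. The 3 ligands overlapped (MCC minus Hb, log2 0.08 ± 0.23, interval -0.47 to 0.64, adjusted p = 0.781).

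Sesn2, which encodes a leucine sensor that holds back the growth kinase mTORC1, also lay at the edge of detection. Its brighter probe read 24.4 and 45.9 with MCC, 32.2 and 36.1 with gp250 and 23.2 and 33.8 with Hb, and passed the detection filter through the 2 gp250 arrays alone. It was detected on no MCC or Hb array at a detection p under 0.05, so no fold is given. The limma fit did not pass (adjusted p = 0.808). The second Sesn2 probe was detected nowhere, with signals between -11.8 and -0.555.

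Ddit4 encodes REDD1, another brake on mTORC1, and was the only one of the 9 genes with a probe to be called lower. Its deposited signal was 2189 and 1980.5 with MCC, 2578 and 2902 with gp250 and 2681 and 2597 with Hb. Both MCC arrays were below the other 4. The normalized level was 1.58-fold lower with MCC than with Hb (log2 -0.66 ± 0.09, interval -0.88 to -0.45, adjusted p = 0.00112). Without scaling between arrays the log2 change was -0.34 (adjusted p = 0.0428).

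**Figure D2:**
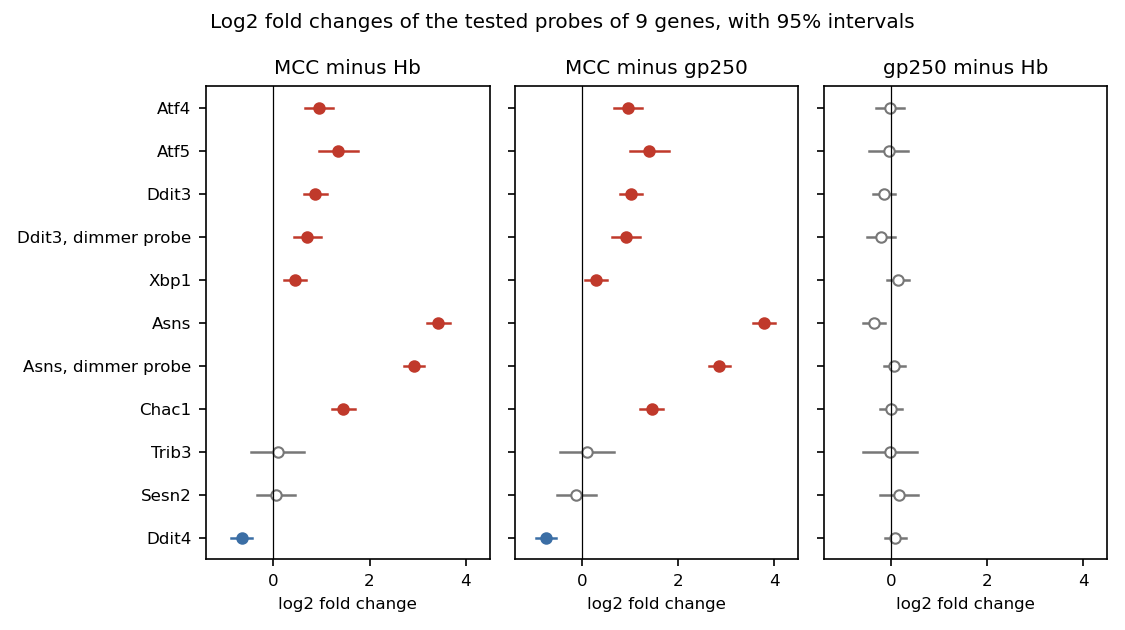
Log2 fold change (horizontal axis) of each of the 11 tested probes in 3 comparisons, with 95% intervals from limma. Filled points passed an adjusted p of 0.05, red higher and blue lower in the first-named ligand, and open points did not. Asns lies at 3.43 for MCC minus Hb, Ddit4 at -0.66, and all 11 points of gp250 minus Hb are open.

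Against gp250, the positive-selecting ligand, MCC gave the same counts: 8 of 11 tested probes higher (27.1% of all tested probes), 1 lower (28.6% of all) and 2 not passing, where 55.8% of all tested probes passed. By brightest probe 6 genes were higher (26.4% of all genes), 1 was lower (29.6%) and 2 did not pass, against 56% of all genes passing. This comparison shares the MCC arrays with the one against Hb. The fold over gp250 was 13.8 for the brightest Asns probe (log2 3.79 ± 0.10, adjusted p = 2.63e-06), 2.64 for Atf5 (1.40 ± 0.17), 2.02 for the brighter Ddit3 probe (1.01 ± 0.10) and 1.94 for Atf4 (0.96 ± 0.12). Ddit4 was 1.68-fold lower than with gp250 (log2 -0.75 ± 0.09, adjusted p = 0.000626). Trib3 (log2 0.10 ± 0.23, adjusted p = 0.741) and Sesn2 (adjusted p = 0.576) did not pass.

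Between gp250 and Hb no change was detected in these genes. Of the 11 tested probes 0 passed in limma (0% of all tested probes), and 1 had an unadjusted p under 0.05, against 782 over the whole table. That probe was the brightest of Asns, which read 47.4 and 56.3 with gp250 and 69.8 and 74.5 with Hb, without overlap. Its log2 difference was -0.35 ± 0.10 with an interval of -0.59 to -0.12, and an adjusted p of 0.716. The intervals of gp250 minus Hb were -0.31 to 0.28 for Atf4, -0.45 to 0.36 for Atf5, -0.37 to 0.09 for the brighter Ddit3 probe, -0.07 to 0.38 for Xbp1 and -0.12 to 0.31 for Ddit4. Chac1 was detected with neither ligand. The gp250 and Hb arrays did not overlap on some of the 9 brightest probes, although 0 of these passed. Lack of overlap between 2 and 2 arrays was not read as evidence, because its share over all tested probes was not computed.

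**Figure D3:**
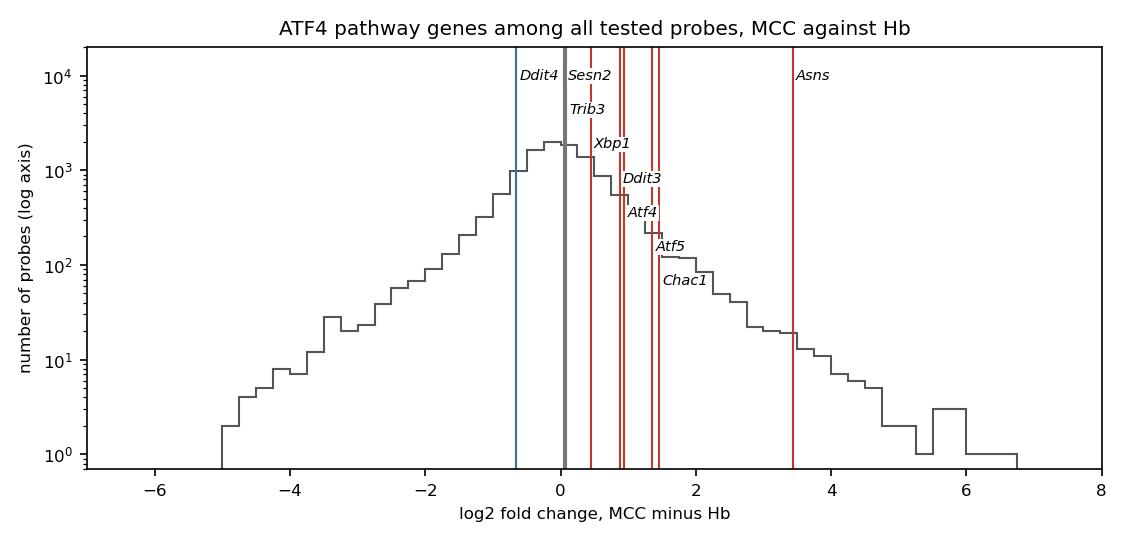
Number of probes (vertical axis, log scale) by log2 fold change of MCC minus Hb (horizontal axis) over all 11942 tested probes, with the brightest probe of 9 genes as vertical lines, red where higher, blue where lower and grey where the test did not pass. Asns at 3.43 lies in the upper tail, the other lines between -0.66 and 1.45.

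By distance between profiles centred on their own mean over the 6 arrays, the genes most like Asns were Npas4 (distance 0.17 in log2 units, Pearson r = 0.999), Apex1 (0.23, r = 0.999) and Slc29a1 (0.27, r = 0.999), of 8244 other genes. The genes most like Ddit4 were Zfp282 (0.08, r = 0.999), Atg10 (0.08, r = 0.995) and Ift27 (0.08, r = 0.998). The 6 points fall into 3 ligands, and all these profiles share a step between MCC and the other arrays.

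Other genes of the same pathways, in 8 lists of 102 genes, had 70 genes tested. Between MCC and Hb, 45 were higher (26.3% of all genes, by brightest tested probe) and 10 lower (28.8% of all genes). Between MCC and gp250, 43 were higher (26.4% of all genes) and 8 lower (29.6% of all genes). Of the 45, 6 passed the detection filter only through the MCC arrays and so had to be higher there: Slc1a4, Slc6a9, Hspa5, Pdia6, Hyou1 and Sesn3. Of the 10 lower, Slc7a11 passed only through the gp250 and Hb arrays. The list counts and medians carry these genes. The lists were also chosen with earlier results of these data known, so the counts beside the shares of all genes are a description. Of 10 listed enzymes of amino acid synthesis 5 were tested, and all 5 rose, with a median log2 change of 1.52. The brightest probes of Psph, Cth, Cbs and Gpt2 were detected on no array, and no probe was found for Pycr1. Shmt2, which makes glycine and one-carbon units, rose 5.82-fold, Psat1, a serine synthesis enzyme, 5.43-fold, the one-carbon enzyme Mthfd2 2.88-fold and Aldh18a1, of proline synthesis, 2.66-fold. The 10 tested aminoacyl-tRNA synthetases, which charge tRNAs with amino acids, all rose (median 1.00), led by Aars at 3.29-fold, Wars at 2.64-fold, Iars at 2.54-fold and Mars at 2.14-fold.

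Amino acid transporters went both ways. Of 8 tested, 5 were higher (26.3% of all genes), 2 of them through the filter on the MCC arrays alone. In this list 2 were lower, near the 28.8% of all genes, and the median was 0.83. Slc7a5, the light chain of a carrier of large neutral amino acids, had deposited signals of 4561 and 4034 with MCC, 323 and 319.6 with gp250 and 337 and 364 with Hb, and rose 9.52-fold (log2 3.25 ± 0.10, adjusted p = 3.91e-06). Slc7a11, the cystine importer and a known ATF4 target, went the other way, at 11.2 and 28.3 with MCC, 518 and 597 with gp250 and 528 and 456 with Hb. Neither MCC array detected it, and the level was at least 9.62-fold lower than with Hb. Slc38a2, a neutral amino acid carrier that ATF4 is also known to induce, was the other called fall (log2 -1.08 ± 0.10) and is named here after its value was seen. Slc1a4, a carrier of small neutral amino acids, was at least 2.39-fold higher. Slc7a3, a cationic amino acid carrier, rose 2.12-fold on its brightest probe. The dimmer Slc7a3 probe, not detected with MCC or with Hb, did not pass in limma (adjusted p = 0.257).

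Of 14 further ATF4 and CHOP targets listed, 6 were tested. Of these, 2 were higher, near the 26.3% of all genes, and 0 lower (28.8% of all genes), with a median of 0.24. Eif4ebp1, a repressor of cap-dependent translation, rose 2.13-fold, and Ppp1r15a, whose protein GADD34 reverses eIF2 phosphorylation, 1.39-fold. The Ppp1r15a call was lost without MCC replicate 1 (log2 0.42), MCC replicate 2 (0.54), Hb replicate 1 (0.41) or Hb replicate 2 (0.55), where all 6 arrays gave 0.48. Without Hb replicate 2 the list had 1 gene higher and 1 lower. Of the eIF2 kinases, eIF2 and eIF2B, 6 of 11 were higher (26.3% of all genes) and 2 lower (28.8% of all genes). The median was 0.34. Ppp1r15b, another eIF2 phosphatase subunit, rose 1.67-fold, the eIF2 subunit gene Eif2s2 1.53-fold and Impact, an inhibitor of the amino acid sensor GCN2, 1.52-fold. Eif2ak3, which encodes the ER stress kinase PERK, was 1.53-fold lower (log2 -0.61 ± 0.10), and Eif2b2, a subunit of the exchange factor eIF2B, 1.28-fold lower (log2 -0.36 ± 0.09). Neither fall passed without scaling between arrays (log2 -0.33 and -0.04). Eif2b2 was also lost without MCC replicate 1 (-0.32), Hb replicate 1 (-0.38) or Hb replicate 2 (-0.35). These folds are against Hb. Against gp250, Ppp1r15a, Ppp1r15b and Eif2b2 did not pass in limma (adjusted p = 0.104, 0.0545 and 0.0941). Eif4ebp1, Eif2s2, Impact and Eif2ak3 passed there in the same direction.

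**Figure D4:**
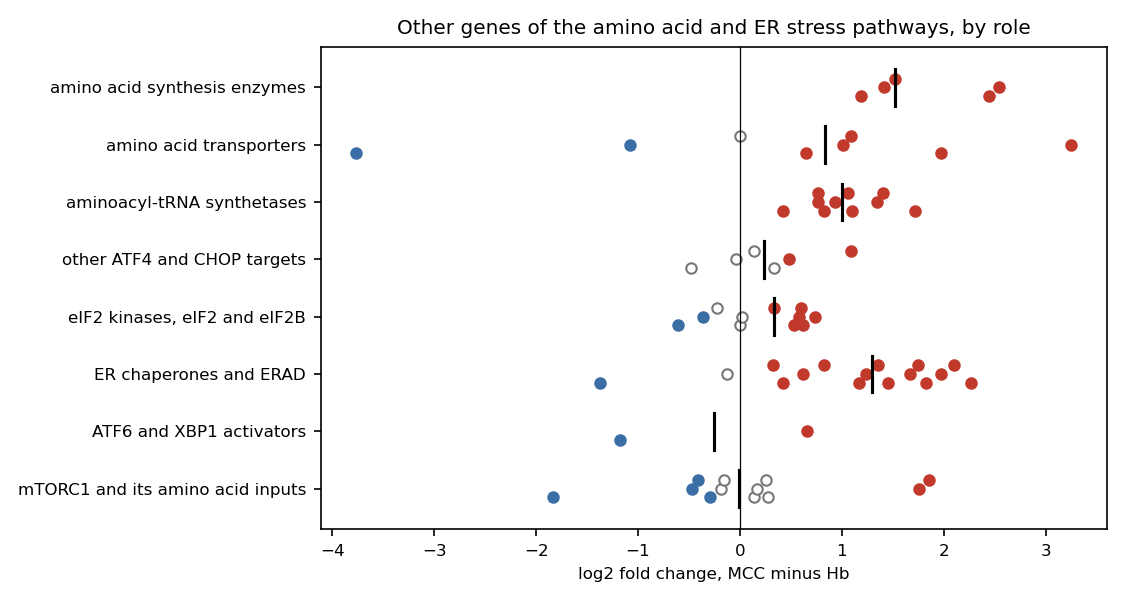
Log2 fold change of MCC minus Hb (horizontal axis) for the brightest tested probe of each of 70 genes, in 8 lists down the vertical axis. Red points are higher and blue points lower at an adjusted p of 0.05, open points did not pass, and black bars are medians. Synthesis enzymes and tRNA synthetases lie above 0 throughout, while transporters run from -3.76 to 3.25.

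Genes for ER chaperones and ER-associated degradation mostly rose with MCC. Whether XBP1 or ATF6 drove this was not tested. Of 16 tested, 14 were higher than with Hb (26.3% of all genes), 3 of them through the filter on the MCC arrays alone. In this list 1 gene was lower (28.8% of all genes), and the median was 1.30. Dnajb9 did not pass (log2 -0.13 ± 0.11, adjusted p = 0.348 in limma). The calcium-binding chaperone gene Calr rose 4.81-fold (log2 2.27 ± 0.15), the disulfide isomerase gene Pdia4 4.30-fold and Creld2 3.92-fold, and Hspa5, which encodes the chaperone BiP, was at least 2.73-fold higher. Edem1, whose protein passes misfolded glycoproteins to degradation, was 2.58-fold lower (log2 -1.37 ± 0.15). Of 4 genes listed around the start of the XBP1 and ATF6 arms 2 were tested, and Ern1 and Mbtps2 were detected on no array. Atf6b, a relative of Atf6, rose 1.58-fold (log2 0.66 ± 0.11). Mbtps1, the protease gene for the first cut of ATF6, was 2.26-fold lower on its brightest probe. Its 3 tested probes lay between -1.31 and -1.18 on the log2 scale.

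Around mTORC1, which Sesn2 and Ddit4 restrain, 2 of 12 tested genes were higher and 4 lower (median -0.01), near the shares of all genes (26.3% higher and 28.8% lower). The split became 4 higher and 1 lower without scaling between arrays. The number lower was 2 with scaling to a common median of the tested probes. It was 3 without background correction, with no filter on dim probes or with a replicate block. It also fell when any MCC or Hb array was left out. The relatives of Sesn2 went opposite ways. Sesn1 read 1910 and 1989 with MCC, 5000.3 and 6162 with gp250 and 5876 and 4986 with Hb, and was 3.56-fold lower than with Hb (log2 -1.83 ± 0.11). Sesn3 read 188 and 173 with MCC, 19.7 and 39.5 with gp250 and 32.3 and 26.8 with Hb. It was at least 3.32-fold higher with MCC than with Hb, where it was not detected. Rheb, the GTPase gene that activates mTORC1, rose 3.39-fold (log2 1.76 ± 0.10). Nprl2, part of a complex that shuts mTORC1 off when amino acids are short, was 1.38-fold lower (log2 -0.47 ± 0.09), a call lost without scaling between arrays (-0.15).

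In the 8 lists no gene passed between gp250 and Hb in limma (0 of 70 tested), and list medians lay between -0.10 and 0.08 on the log2 scale.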

How the data were processed

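Messenger RNA was read on 6 one-colour Illumina mouse arrays, 2 per ligand, with groups and replicate numbers from the sample titles. Per the file headers, each probe and array has an intensity that the authors deposited without normalization and a deposited detection p-value. All 6 arrays hold deposited intensities below 0, so a background had been subtracted. The authors' processed intensity table holds the same values times 1 factor per array (0.825 to 1.13) and served as an alternative. Scanner software remains not given in the sources used here.

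The function neqc of limma 3.58.1 (R 4.3.3) applied normexp background correction with control parameters inferred from detection p-values, an offset of 16, quantile scaling and log2, which pulls fold changes of dim probes towards 0. Probes with detection p under 0.05 on at least 2 of 6 arrays were tested with 1 mean per ligand over all arrays (3 residual degrees of freedom), eBayes, and Benjamini-Hochberg adjustment over all 11942 tested probes. Errors are SE. The fit was tested on simulated data. The number of arrays limits the precision.

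A gene was first described by its brightest probe. From each list up to 4 called genes by size, and up to 2 of the opposite direction, were named (Slc38a2 was added after its value was seen), and for the steepest called rise and fall of the 10 genes the 3 nearest profiles. Alternatives were other background correction, offset, scaling, filters, prior and samples, a replicate block and leaving out each array. The genes and lists were chosen with earlier results of these data known. Symbols came from the platform annotation, and where a listed symbol was not found, through the Entrez number in the RefSeq table. Same-numbered deviations correlated at -0.02 to 0.02 across ligands, so no pairing by replicate number was seen. Whether same-numbered arrays shared a mouse or a culture is not stated, and these values cannot tell.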

Additional observations from a re-analysis of the deposited data

How the results depend on the processing

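Over 16 alternatives, the direction and call of Asns, Atf4, Atf5, Ddit3 and Ddit4 held in all of them, for MCC against Hb and against gp250. Chac1 was called in the 15 that tested it, but wherever dim probes were filtered it entered through the MCC arrays alone, so those calls say nothing of stability. Xbp1 held against Hb in 16 of 16 and against gp250 in 7 of 16. Its call against gp250 was also lost with no filter on dim probes (adjusted p = 0.0505) and with only the 2 ligands compared (adjusted p = 0.055). With the replicate number as a block, 9 probes of the 10 genes were called for MCC against Hb, 8 against gp250 and 0 for gp250 against Hb; 6331, 6474 and 0 probes were called in all. The probe that the block lost was Xbp1 against gp250 (log2 0.29, adjusted p = 0.058). Leaving out 1 array gave 9 called probes against Hb and 8 against gp250, and 5275 to 6460 called probes in all against Hb and 5388 to 6556 against gp250. With no filter, 10 were called against Hb, the dimmest Asns probe among them. The list of further ATF4 and CHOP targets had 1 called gene without background correction, with the authors' processed values and with no filter, and 1 to 2 when 1 array was left out. Where it had 1, Ppp1r15a was the call lost. Not scaling between arrays split the calls against gp250 into 5023 higher and 1910 lower, in place of 3242 and 3416. Between gp250 and Hb 0 probes were called under each alternative. Signals near background limit Trib3, Sesn2 and Chac1.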
